A study of Mus musculus with 48 samples.

Results

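The comparison described here sets mouse embryonic stem cells that lack both KAT6A and KAT6B against stem cells that lack KAT6A alone, so that the groups differ by the added loss of KAT6B. Its members are 6 of the 48 RNA libraries of the series, 3 from the double knockout and 3 from the KAT6A knockout, and they were chosen by their genotype and time point labels. All lines derive from E14, a mouse embryonic stem cell line grown on gelatin in serum with LIF, the cytokine that maintains self-renewal, and the stem cells had no treatment (day 0). The labelled genotypes are KAT6A-/-; KAT6B-/- for the double knockout, KAT6A-/- for the KAT6A knockout, KAT6B-/- for the KAT6B knockout and wildtype for E14. Both groups of the main comparison therefore carry the loss of KAT6A. The KAT6B knockout and E14 libraries of the same day (3 each) were used to set the added loss beside the loss of KAT6B in cells that keep KAT6A, and the later libraries of the same lines (days 2, 6 and 15 of neuronal differentiation) to follow the genes that changed. The 3 replicates came from 3 independent experiments on each line, and the number of clones behind a line is not given in the sources used here, so p-values measure the spread between experiments and cannot separate the genotype from what is particular to a clone.

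The MYST family of lysine acetyltransferases includes KAT6A and KAT6B. Each works in a complex with a BRPF scaffold protein, ING5 and MEAF6 and acetylates histone H3, and the winged-helix domains of both bind DNA that holds unmethylated CpG dinucleotides. They are paralogues, so a loss of KAT6B in cells without KAT6A leaves neither enzyme of the pair.

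Total counts of the 6 libraries ran from 36.83 to 53.23 M counts, against 22.5 to 72.28 M over all 48. The stem cell label held in both groups: all 12 core pluripotency genes passed the filter on low counts, and their summed level was 5420 to 5730 CPM (the usual library-size scaling of counts, with TMM factors between libraries) in the KAT6A knockout and 5290 to 5790 CPM in the double knockout. Pou5f1, the central pluripotency factor, was at 611 to 708 CPM in the KAT6A knockout and at 555 to 593 CPM in the double knockout. Among the 12 day 0 libraries E14 replicate 1 stood apart on the first principal component, at -83.9 against -17.8 to 31.5 for the other 11, and it had the lowest total, 22.5 M. That library is not among the 6 of the main comparison, where it enters the scaling, the filter and the estimate of spread, but it is 1 of the 3 E14 libraries of KAT6B knockout minus E14 and of the interaction given below.

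The transcript of the gene whose loss separates the groups was lower but not gone. Kat6b stood at 316, 266 and 294 CPM in the 3 KAT6A knockout libraries and at 167, 234 and 174 CPM in the 3 double knockout libraries. The groups did not overlap, and the log2 difference was -0.61 ± 0.15 (SE), which missed the threshold (adjusted p = 0.216 by edgeR's quasi-likelihood test). Kat6a, lost in both groups, was at 79.4, 70.9 and 71.7 CPM in the KAT6A knockout and at 80.9, 108 and 105 CPM in the double knockout (log2 difference 0.41 ± 0.13, adjusted p = 0.394). Both groups lay below the 3 E14 libraries, at 113 to 145 CPM. A count over a whole gene does not show which exon was edited or whether protein was lost.

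Few genes passed the test between double and KAT6A knockout stem cells in the main fit. Of 18938 genes tested, 10 passed the threshold of adjusted p under 0.05, which is 0.0528% of those tested: 5 were lower in the double knockout (0.0264%) and 5 higher (0.0264%). At an unadjusted p under 0.05 there were 1433 genes (7.57%), 821 higher and 612 lower. The lower genes were Kdm1a, Luzp1, Ntn1, Tdh and Hap1, and the higher genes described here are Nxf7, Krt7, H19 and Nrk. The count depended on single libraries: it was 0 without KAT6A knockout replicate 1, 2 (Luzp1 and Kdm1a) without KAT6A knockout replicate 3, 5 without KAT6A knockout replicate 2 or without double knockout replicate 2, and 24 and 27 without E14 replicates 1 and 2. With DESeq2 the count was 127, and with the 6 libraries alone in the fit it was 78, and these sets held 10 and 8 of the 10 genes.

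RefSeq promoters (GRCm38.p6) were found for 6 of the 10 called genes. The 250 bases before the start are shown for the 2 lower neighbours and for the 2 higher genes with the smallest p-values. They are given because KAT6A and KAT6B bind CpG-rich DNA and these 4 genes had the smallest p-values of the 10. Capitals mark each CG, which reads the same on both strands, and the rest is in lower case, 5′ to 3′ on the gene's own strand.
Kdm1a, chr4:136602724-136602973, minus strand: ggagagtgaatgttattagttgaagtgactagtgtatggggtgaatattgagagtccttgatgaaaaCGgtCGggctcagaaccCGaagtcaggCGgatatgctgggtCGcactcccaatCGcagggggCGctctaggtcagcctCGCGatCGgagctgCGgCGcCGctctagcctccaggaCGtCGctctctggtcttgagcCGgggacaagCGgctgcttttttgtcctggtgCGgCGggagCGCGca
Luzp1, chr4:136469511-136469760, plus strand: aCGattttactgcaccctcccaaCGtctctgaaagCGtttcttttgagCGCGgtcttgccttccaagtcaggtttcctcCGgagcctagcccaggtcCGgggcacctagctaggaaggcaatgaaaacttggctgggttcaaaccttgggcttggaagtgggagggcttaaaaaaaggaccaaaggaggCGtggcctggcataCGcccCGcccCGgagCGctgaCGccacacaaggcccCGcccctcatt
Krt7, chr15:101412153-101412402, plus strand: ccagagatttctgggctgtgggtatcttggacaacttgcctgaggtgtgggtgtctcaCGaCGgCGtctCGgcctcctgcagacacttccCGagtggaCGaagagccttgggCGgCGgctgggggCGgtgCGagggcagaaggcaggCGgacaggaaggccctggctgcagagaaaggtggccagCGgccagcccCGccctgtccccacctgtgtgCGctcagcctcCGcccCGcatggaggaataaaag
Nxf7, chrX:135598782-135599031, minus strand: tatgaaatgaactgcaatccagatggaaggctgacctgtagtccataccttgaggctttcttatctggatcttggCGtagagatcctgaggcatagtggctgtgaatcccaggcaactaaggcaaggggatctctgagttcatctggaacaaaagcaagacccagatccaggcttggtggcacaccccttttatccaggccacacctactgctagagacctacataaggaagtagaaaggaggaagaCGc

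The Kdm1a window holds 21 CG and the Luzp1 window 14, against a median of 6 over 32851 promoter entries cut the same way. As many CG as in Kdm1a stood in 16.3% of those entries and as many as in Luzp1 in 29.4%. The Krt7 window, from a gene that rose, holds 16 (25.4% of entries have as many), and that of Nxf7 holds 2 (81.2%). The windows of Nrk, which rose, and Hap1, which fell, are not shown and hold 24 (12.0%) and 11 (35.6%). At least 1 CG is found in 92.1% of all entries, and CG number did not separate the lower from the higher genes among these 6 windows.

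Kdm1a and Luzp1 gave the smallest adjusted p-values among the genes that fell. Kdm1a encodes LSD1, the demethylase that removes methyl groups from histone H3 lysine 4 and helps to shut down enhancers when stem cells differentiate. Its level was 265, 271 and 246 CPM in the KAT6A knockout and 116, 143 and 102 CPM in the double knockout. All 3 double knockout libraries lay far below all 3 KAT6A knockout libraries, and the double knockout mean was 46.1% of the other (log2 change -1.12 ± 0.14, adjusted p = 0.00585 by edgeR). Luzp1, a leucine zipper protein of the actin cytoskeleton and the centrosome, was at 171, 153 and 148 CPM in the KAT6A knockout and at 71.7, 89.2 and 77.4 CPM in the double knockout. The groups were again well apart, with a mean of 50.5% (log2 change -0.99 ± 0.11, adjusted p = 0.00495). Across 19 other settings of the analysis each of these calls held in 18 and was lost without KAT6A knockout replicate 1 (adjusted p = 0.0694 for Kdm1a and 0.0649 for Luzp1), with log2 changes from -1.26 to -1.01 for Kdm1a and from -1.08 to -0.92 for Luzp1.

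**Figure D1:**
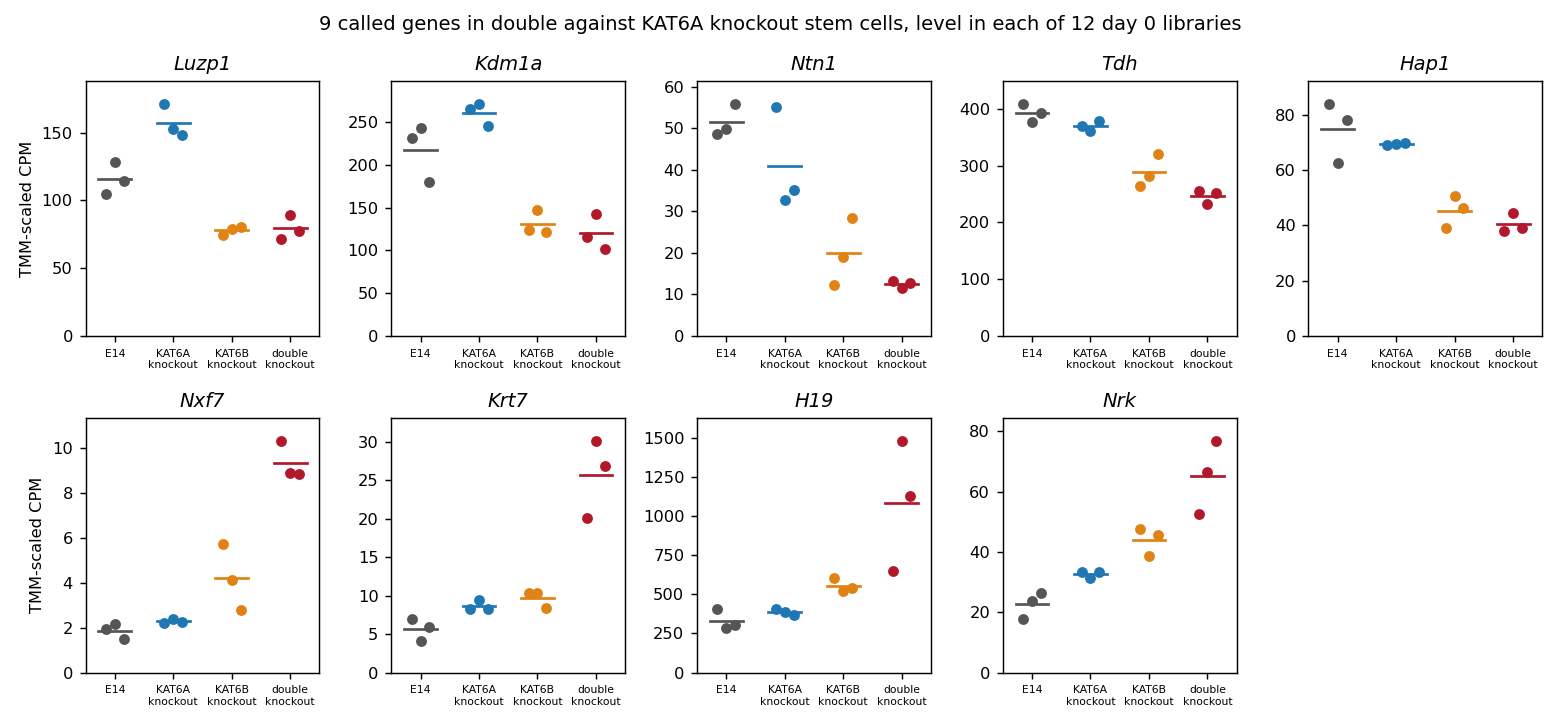
Level (TMM-scaled CPM, linear axes from 0) of each of 9 called genes in the 12 day 0 libraries, with points for libraries and a bar for the mean of 3. In each panel the 3 double knockout libraries lie apart from the 3 KAT6A knockout libraries, and for Kdm1a and Luzp1 they lie at the height of the KAT6B knockout.

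The pair also had lower values where KAT6B alone was removed. In the KAT6B knockout, which keeps KAT6A, Kdm1a was at 124, 147 and 121 CPM against 231, 243 and 180 CPM in E14, and Luzp1 at 74.7, 78.9 and 80 CPM against 105, 128 and 114 CPM. Neither group of 3 overlapped with its control, and the log2 differences were -0.74 ± 0.14 and -0.57 ± 0.11, just outside the threshold (adjusted p = 0.073 and 0.0869). In KAT6B knockout minus E14, 2 genes passed it (0.0106% of 18938, 0.00528% in each direction): Plekhg1, a guanine nucleotide exchange factor, rose (log2 0.99 ± 0.12, adjusted p = 0.0161), and Lars2, the mitochondrial leucyl-tRNA synthetase, fell (log2 -1.37 ± 0.19, adjusted p = 0.0215). Single libraries set that count: it was 1164 without E14 replicate 2, and 0 without E14 replicate 3 or without KAT6B knockout replicate 1. It was 5 without KAT6B knockout replicate 2 and 4 without KAT6B knockout replicate 3. Without E14 replicate 1, the library that stood apart, the 2 genes called were Plekhg1 and Lgals9, so that the call of Lars2 was lost. Between the double and the KAT6B knockout, which differ by KAT6A and where 0.0634% of genes passed, the values of the pair lay together, with log2 differences of -0.12 ± 0.14 for Kdm1a and 0.03 ± 0.11 for Luzp1 and overlapping libraries. In the KAT6A knockout the pair stood above E14 with no overlap, by log2 0.26 ± 0.14 and 0.44 ± 0.11, and neither passed the test (adjusted p = 0.931 for both). By mean, the KAT6A knockout had the highest level of the 4 genotypes for both genes at day 0, and the fall in the double knockout is measured from that level.

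The pair was next followed in the later libraries of the same lines. The Kat6b transcript itself separated the groups less with time: it was at 213 to 256 CPM in the KAT6A knockout and 151 to 175 CPM in the double knockout at day 2, overlapped at day 6 (121 to 152 and 96.8 to 122 CPM), and overlapped at day 15 (89.4 to 104 and 78.9 to 104 CPM). At day 15 KAT6B knockout replicate 1 had 126 CPM of Kat6b, above the 3 E14 libraries (89.5 to 104 CPM), and the other 2 KAT6B knockout libraries 75.5 and 71.2 CPM. At day 6 the KAT6B knockout libraries lay below E14, at 90.9 to 99.4 against 101 to 151 CPM. The Kat6b transcript thus did not part the genotypes at every later day, and for these days the KAT6B genotype rests on the labels. At day 2, 3 of 19597 genes passed the test in double minus KAT6A knockout (0.0153%): Luzp1 fell (log2 -1.06 ± 0.12, adjusted p = 0.00293), Kdm1a fell (log2 -0.85 ± 0.13, adjusted p = 0.043), and Magea9, a cancer-testis gene of the X chromosome with close copies beside it, rose (log2 1.91, adjusted p = 0.043). At day 6 the 2 genes that passed of 20537 (0.00974%) were Luzp1 (log2 -1.17 ± 0.11, adjusted p = 0.000846) and Kdm1a (log2 -0.95 ± 0.09, adjusted p = 0.00107). At day 15 the 1 gene that passed of 20229 (0.00494%) was Luzp1 (log2 -1.18 ± 0.13, adjusted p = 0.0393), and Kdm1a gave -0.86 ± 0.11 (adjusted p = 0.069). At each of the 4 days the 3 double knockout libraries lay below the 3 KAT6A knockout libraries for both genes, as held for 4.93%, 3.74% and 5.09% of all genes tested at days 2, 6 and 15. The day 15 call of Luzp1 was lost in each of the 6 fits without 1 library, and at day 2 the count ran from 0 without double knockout replicate 1 to 35 without double knockout replicate 3, and was 1 (Luzp1) without any one of the other 4 libraries.

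In KAT6B knockout minus E14 Kdm1a fell at day 6 (log2 -0.63 ± 0.09, adjusted p = 0.0458, in a comparison where 0.0292% of genes passed) and at day 15 (log2 -0.78 ± 0.11, adjusted p = 0.0336, where 0.0742% passed). At day 2 no gene passed in that comparison, and Kdm1a gave -0.79 ± 0.13 (adjusted p = 0.0658). Luzp1 gave -0.76 ± 0.12, -0.61 ± 0.11 and -0.12 ± 0.12 at days 2, 6 and 15, and passed at none of them. At day 15 the Luzp1 levels were 84.8, 102 and 109 CPM in E14, 170, 175 and 161 CPM in the KAT6A knockout, 79.5, 97.8 and 94.6 CPM in the KAT6B knockout and 69.2, 81 and 73.6 CPM in the double knockout. The KAT6A knockout libraries were the high ones there, and the KAT6B knockout overlapped with E14.

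**Figure D2:**
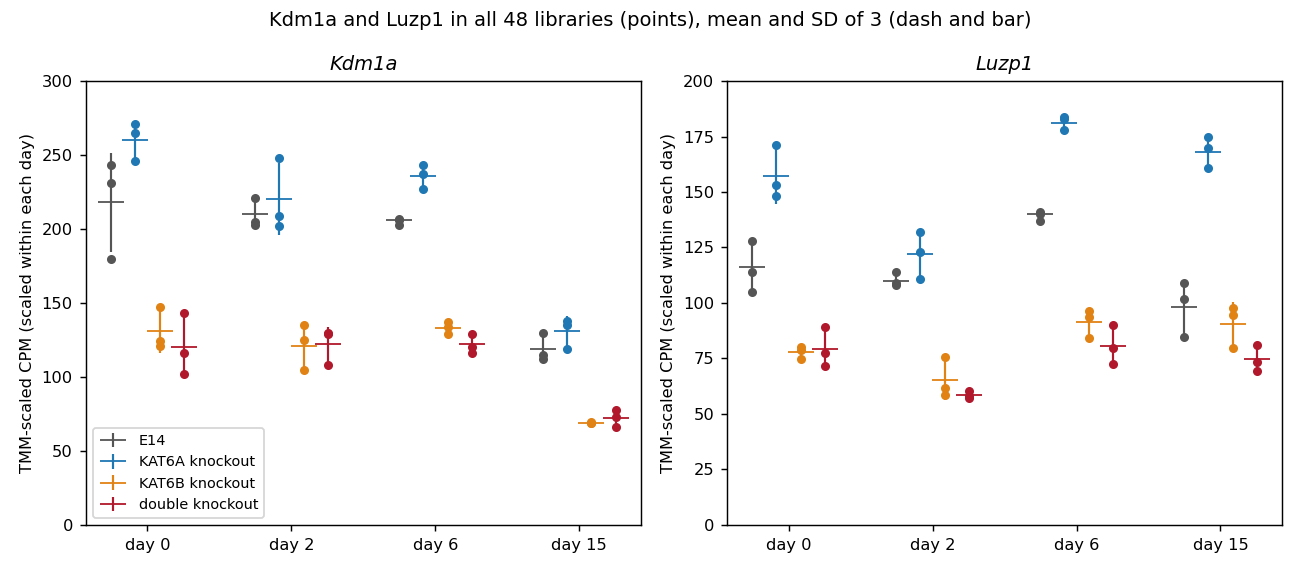
Kdm1a (left) and Luzp1 (right) in the 48 libraries (points, TMM-scaled CPM scaled within each day, linear axes from 0), with the mean and SD of 3 libraries as dash and bar. At each day the double knockout lies below the KAT6A knockout and close to the KAT6B knockout; for Luzp1 at day 15 the KAT6B knockout overlaps with E14.

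Kdm1a and Luzp1 are neighbours on chromosome 4. On GRCm39, Luzp1 lies on the plus strand from 136197072 to 136282091 and Kdm1a on the minus strand from 136277851 to 136330034, so that the genes run towards each other and their far ends overlap by 4.24 kb. The libraries were made with a kit that keeps the strand, but the strand setting of the authors' counting is not given in the sources used here, so reads in the shared stretch may be split or dropped in a way that ties both counts. The 53 other tested genes within 2000 kb with a mean of at least 1 CPM did not share the difference: their median log2 difference was -0.01 and they ran from -0.43 (Epha8) to 1.30 (Htr1d, at under 5 CPM), and none was called. The nearest neighbours on either side, Ephb2 (log2 -0.18 ± 0.19) and Htr1d (log2 1.30 ± 0.42, adjusted p = 0.431), did not pass the test. In KAT6B knockout minus E14 the same 53 genes had a median of -0.02 and ran from -0.62 to 0.67.

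**Figure D3:**
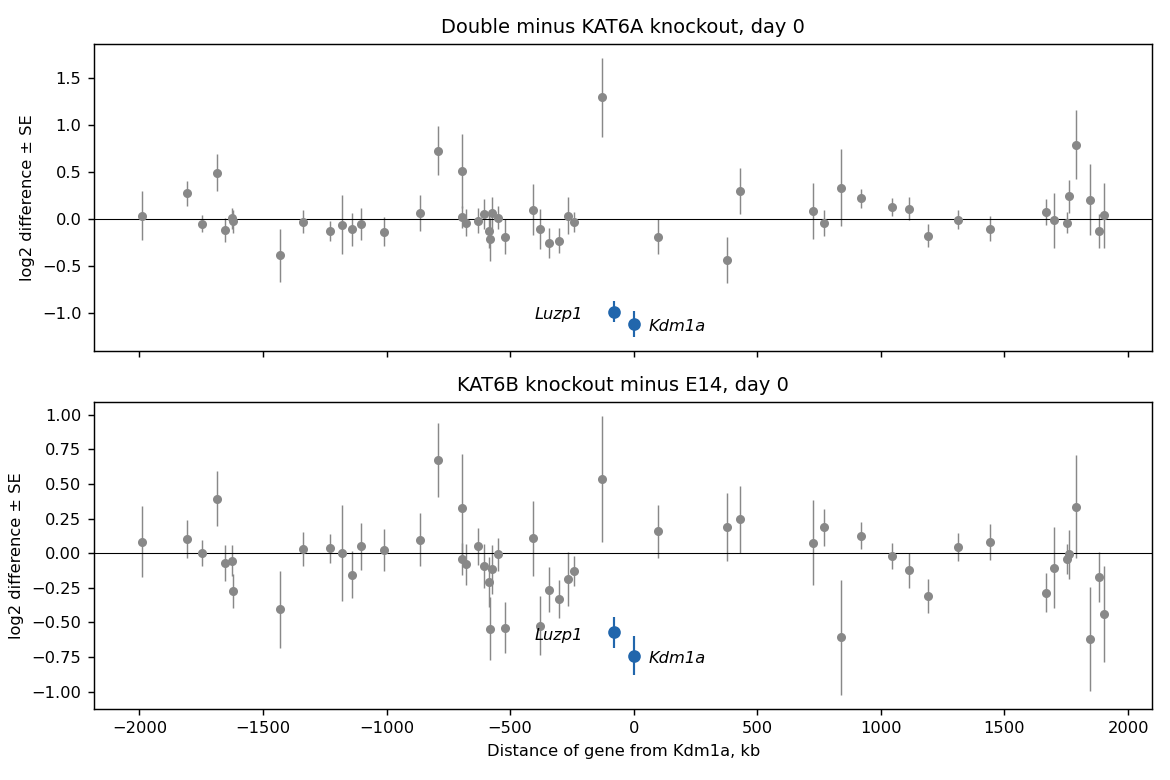
Log2 difference ± SE of each tested gene against the distance in kb between its lower coordinate and that of Kdm1a, for double minus KAT6A knockout (top) and KAT6B knockout minus E14 (bottom) at day 0. In the top panel Luzp1 and Kdm1a lie at -0.99 and -1.12, below the other 53 genes, which reach down to -0.43; in the bottom panel Luzp1, at -0.57, lies among the others, which reach down to -0.62, and Kdm1a, at -0.74, lies below them.

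The other genes that fell encode proteins of separate roles. Ntn1, the secreted guidance cue netrin-1, was at 55.1, 32.7 and 35.2 CPM in the KAT6A knockout and at 13.1, 11.6 and 12.8 CPM in the double knockout, which is 30.5% of the mean (log2 -1.71 ± 0.25, adjusted p = 0.0198). The double knockout libraries were tight and low, while KAT6A knockout replicate 1 was high. Tdh, the threonine dehydrogenase on which mouse embryonic stem cells rely for one-carbon units, was at 369, 360 and 379 CPM and at 255, 232 and 251 CPM in the same order (log2 -0.59 ± 0.09, adjusted p = 0.0362). Hap1, the huntingtin-associated protein, was at 69.2, 69.5 and 69.8 CPM and at 37.8, 44.5 and 39.2 CPM (log2 -0.78 ± 0.13, adjusted p = 0.0417). In the KAT6B knockout these genes were at 12.3 to 28.4, 264 to 321 and 39.1 to 50.5 CPM, and in E14 at 48.6 to 55.8, 376 to 408 and 62.5 to 83.8 CPM. Hap1 and Tdh were the least stable calls, and in the 6 fits without 1 of the compared libraries neither passed, with adjusted p up to 0.321 and 0.261; Ntn1 passed in 1 of them.

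Of the genes that rose, Nxf7, an X-linked member of the nuclear RNA export factor family, rose from 2.2, 2.38 and 2.27 CPM in the KAT6A knockout to 10.3, 8.88 and 8.82 CPM in the double knockout, a 4.08-fold change (log2 2.03 ± 0.25, adjusted p = 0.00585). Krt7, a keratin of simple epithelia and trophoblast, rose from 8.2, 9.46 and 8.31 CPM to 20.1, 30.1 and 26.9 CPM (log2 1.57 ± 0.20, adjusted p = 0.00595). Both groups were clearly apart for both genes, and each call held in 4 of the 6 fits without 1 compared library. H19, the imprinted long non-coding RNA made from the maternal allele, rose from 408, 385 and 367 CPM to 646, 1480 and 1130 CPM (log2 1.49 ± 0.22, adjusted p = 0.0198). The 3 double knockout values differed among themselves by more than the 3 KAT6A knockout values did. Nrk, an X-linked kinase known from the placenta, rose from 33.3, 31.4 and 33.2 CPM to 52.5, 66.6 and 76.8 CPM (log2 1.00 ± 0.16, adjusted p = 0.0362). H19 and Nrk each passed in 1 of the 6 fits without 1 compared library, with adjusted p up to 0.238 and 0.35. At days 2, 6 and 15 none of the other 7 genes described here passed the test. At day 2 the genes that rose at day 0 gave log2 differences of 1.45 ± 0.30 (H19), 1.02 ± 0.23 (Nrk), 0.93 ± 0.28 (Krt7) and 0.84 ± 0.36 (Nxf7). Those that fell gave -0.93 ± 0.48 (Ntn1), -0.57 ± 0.28 (Tdh) and -0.50 ± 0.23 (Hap1). At day 6 the 7 values ran from -0.42 (Ntn1) to 0.47 (H19), and at day 15 from -0.73 (Krt7) to 0.69 (Nxf7). Values that miss the threshold do not show that a change is absent.

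Just inside the threshold stood Hap1 (adjusted p = 0.0417), and just outside it, all at adjusted p = 0.0664, Tinagl1, Xist, H1f5, Mllt10, Vgll1, Magea9 and Plekhg1. Tinagl1, a matrix glycoprotein, was at 11.8 to 12.5 CPM in the KAT6A knockout and at 18.2 to 29.4 CPM in the double knockout. Mllt10, a partner of the H3 lysine 79 methyltransferase DOT1L, was at 36.9 to 39.5 and at 50.3 to 76.2 CPM. H1f5, a linker histone, was at 348 to 411 and at 169 to 234 CPM. For these 3 genes the groups did not overlap.

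The effect of KAT6B loss was next compared with and without KAT6A, in libraries that the main comparison does not use. All 10 called genes had the same sign in KAT6B knockout minus E14. For 9 of the 10, those described here, the KAT6B knockout and E14 libraries did not overlap. Over all genes 6.33% were apart and higher and 6.89% apart and lower. The sizes were in part smaller: Nxf7 gave 1.17 ± 0.26, Krt7 0.77 ± 0.21 and H19 0.74 ± 0.22 on the log2 scale. Nrk (0.95 ± 0.16), Hap1 (-0.72 ± 0.13) and Ntn1 (-1.37 ± 0.25) gave values near those with KAT6A absent. None of the 9 passed the threshold there, with adjusted p from 0.073 for Kdm1a, Ntn1, Hap1 and Nrk to 0.267 for H19. The difference between the effects was tested as an interaction, and 0 of 18938 genes passed (0%) by edgeR, with 605 at an unadjusted p under 0.05 (3.19%); DESeq2 called 1, Tmem92, and edgeR called 2, Igf2 and the overlapping Gm49394, without KAT6B knockout replicate 3. The called genes were chosen by 1 of the 2 effects that the interaction compares, so their own interaction values are not evidence of a larger effect; they ran from -0.41 ± 0.16 for Luzp1 to 0.86 ± 0.36 for Nxf7. With all 12 libraries edgeR therefore called no gene whose response to KAT6B loss differed with KAT6A. That does not show the responses to be equal, as the interaction is the less precise test. For Nxf7 its SE was 0.36, against 0.26 in KAT6B knockout minus E14.

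Over all genes, the groups of the main comparison did not overlap for 3561 (18.8%), and those of KAT6B knockout and E14 for 2503 (13.2%). There were 666 genes apart the same way in both, which is 18.7% of the first set and 26.6% of the second, and 45 apart in opposite ways. Across the 18938 genes the log2 differences had a Pearson r of 0.311 and a Spearman rho of 0.363, and 0.506 and 0.503 across the 11257 genes whose mean over the 6 libraries reached 5 CPM. The points of these correlations are genes, which are not independent replicates, and all 12 libraries were scaled and fitted together. On the second principal component, replicate 2 of the double and of the KAT6B knockout stood at 37.3 and 50.3. The other day 0 libraries ran from -36.1 to 21.3. The libraries of the 2 comparisons may thus share a deviation, and its part in these correlations and counts was not tested.

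**Figure D4:**
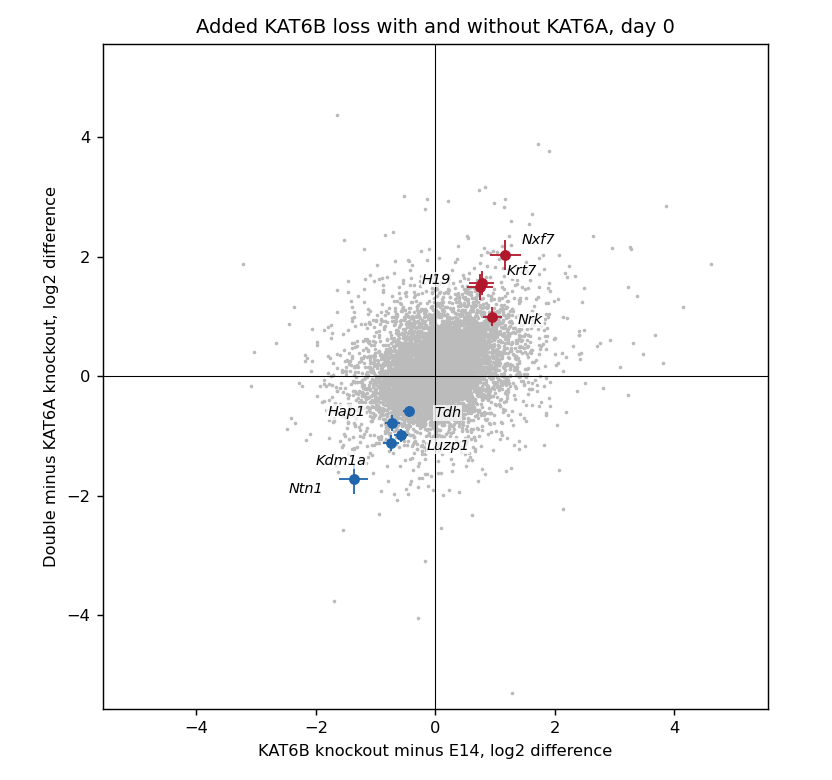
Log2 difference of 18938 genes in double minus KAT6A knockout (vertical) against KAT6B knockout minus E14 (horizontal) at day 0; 9 called genes are drawn with bars of 1 SE, lower genes in blue and higher genes in red. The 5 lower genes lie at the lower left and the 4 higher genes at the upper right, and the cloud of all genes has r = 0.311.

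The other subunits and relatives of the KAT6 enzymes did not pass the test. None of the 14 members of the list of KAT6 complexes and MYST acetyltransferases was called, and their median log2 difference was -0.07 beside 0.01 over all genes tested. Brpf1, the scaffold subunit, was at 88.3 to 96.4 CPM in the KAT6A knockout and at 78.6 to 88.1 CPM in the double knockout. Kat7, the MYST enzyme that shares BRPF scaffolds, was at 399 to 414 and 389 to 402 CPM, a log2 difference of -0.03 ± 0.09. Jade3, a scaffold of Kat7 complexes on the X chromosome, was at 96.5 to 102 and at 121 to 127 CPM (log2 0.32 ± 0.11, adjusted p = 0.483).

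No more than 1 member of any of the 40 gene lists was called, among them Tdh, Krt7, H19 and Ntn1 of 19 axon guidance genes. The list of X-linked Rhox and Xlr families, with 12 tested, also holds Nxf7, of the nuclear RNA export factor family, which was its call. The lists are therefore described by counts of members with groups apart and by medians. Beside them stand 9.21% of all genes apart and higher, 9.59% apart and lower, and an all-gene median of 0.01. The list members named below, other than the called genes, were picked after their values were seen. The sign of each list median given below held in all 19 other settings, except for the MLL and trithorax list (18) and the list of other acetyltransferases and deacetylases (10). Replication-dependent histones, whose mRNAs are made in S phase and end without a poly(A) tail, gave negative values in all 15 members measured, with a median log2 difference of -0.42, and 13 of 15 had groups apart. H3c4 was at 238 to 287 CPM in the KAT6A knockout and at 125 to 158 CPM in the double knockout, and H1f3 at 420 to 483 and 305 to 356 CPM (adjusted p = 0.324 and 0.278). None was called, and several histone genes are near copies of each other, so that reads may be split among them. Their summed level was 2780 to 4580 CPM in E14, 2960 to 3360 CPM in the KAT6A knockout, 2050 to 2420 CPM in the double knockout and 2680 to 2940 CPM in the KAT6B knockout. In KAT6B knockout minus E14 the median of the histone list was -0.17, with 12 of 15 negative and no member apart in either direction. Of 21 genes of mitosis and DNA replication, 19 had negative values, with a median of -0.13, and 8 were apart and lower. Among those were the replicative helicase subunits Mcm4 (290 to 306 against 253 to 259 CPM) and Mcm6 (353 to 381 against 307 to 330 CPM).

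Genes of cholesterol and fatty acid synthesis gave negative values in all 23 members measured, with a median log2 difference of -0.29, and 17 of 23 were apart and lower. Acly, which makes the cytosolic acetyl-CoA for lipid synthesis and acetylation, was at 776 to 830 CPM in the KAT6A knockout and at 583 to 672 CPM in the double knockout (log2 -0.34 ± 0.08, adjusted p = 0.216). Cyp51, an enzyme of the sterol branch, was at 71.6 to 79.5 and at 54.8 to 59.7 CPM. None was called, and in KAT6B knockout minus E14 the median of the list was -0.07 with no member apart in either direction. The summed level was 5610 to 6380 CPM in E14, 6170 to 6660 CPM in the KAT6A knockout, 5290 to 5880 CPM in the KAT6B knockout and 4710 to 5340 CPM in the double knockout. Glycolytic and hypoxia genes had 18 of 22 negative values and a median of -0.17, with 8 apart and lower and 1 higher; Ldha was at 753 to 800 against 512 to 628 CPM.

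Among genes of the naive state of stem cells 1 of 20, Tdh, was called, and it fell. Their median log2 difference was -0.30, 16 of 20 were negative, and 6 were apart and lower. Their summed level overlapped, at 3520 to 3690 CPM in the KAT6A knockout and at 2750, 2840 and 3660 CPM in the double knockout. Nr5a2, a nuclear receptor that supports Pou5f1, was at 66.2 to 82.7 CPM in the KAT6A knockout and at 47.4 to 53.5 CPM in the double knockout (adjusted p = 0.288). Esrrb, another nuclear receptor of the naive network, was at 378 to 394 and 294 to 375 CPM, and Tfcp2l1 at 316 to 352 and 199 to 290 CPM. Nanog overlapped, at 304 to 321 and 242 to 322 CPM. In KAT6B knockout minus E14 the median of the same list was -0.45 and 12 of 20 were apart and lower. Core pluripotency genes were apart in 6 of 12, 3 higher and 3 lower, with a median of -0.05.

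Genes of the primitive streak, the first mesoderm and endoderm of the embryo, and of Nodal signalling had a median log2 difference of -0.82, with 13 of 14 tested members negative, 6 apart and lower, and none called. T, the streak factor brachyury, was at 40.7 to 53.3 CPM in the KAT6A knockout and at 3.24 to 27.9 CPM in the double knockout (log2 -1.83 ± 0.68, adjusted p = 0.546). Fgf8 was at 6.41 to 9.44 and at 0.737 to 2.82 CPM (log2 -1.96 ± 0.43, adjusted p = 0.184), and Lefty2, a Nodal inhibitor and target, at 147 to 188 and at 94.3 to 128 CPM. Nodal itself overlapped, at 62.8 to 66.5 and 50.4 to 70.5 CPM. Of 28 Wnt pathway genes 7 were apart and lower and 2 higher, with a median of -0.19. Lef1, a transcription factor of the pathway, was at 21.8 to 27.3 and at 9.51 to 15.2 CPM, and Notum and Sp5, a feedback inhibitor and a target, at 26.1 to 29.5 against 10.6 to 14.9 CPM and at 22.5 to 43.9 against 3.48 to 21 CPM.

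Among trophoblast and simple epithelium genes Krt7 was called and rose, 11 of 14 tested members were positive, the median log2 difference was 0.64, and 7 were apart and higher. Hand1, a factor of trophoblast giant cells, was at 10.6 to 22.9 CPM in the KAT6A knockout and at 29 to 50.1 CPM in the double knockout. Esx1 was at 4.36 to 6.81 and 10.1 to 12.8 CPM, Ascl2 at 3.68 to 4.66 and 6.74 to 9.85 CPM, and Plet1 at 5.13 to 6.92 and 10.4 to 12.2 CPM (adjusted p = 0.185, 0.282 and 0.0944). Transcription factors of trophoblast stem cells did not share 1 pattern. Cdx2 overlapped at 4.79 to 6.16 and 2.58 to 7.36 CPM, Tfap2c overlapped at 80.8 to 91.7 and 71 to 87 CPM, and Elf5 lay under 0.6 CPM in all 6 libraries. Gata3 was apart at 5.36 to 6.33 and 8.37 to 14.9 CPM (adjusted p = 0.653). The summed level of the list was 458 to 710 CPM in E14, 672 to 824 CPM in the KAT6A knockout, 488 to 647 CPM in the KAT6B knockout and 618 to 1050 CPM in the double knockout, and the last groups overlapped with each other. Much of that sum came from the keratins Krt8 and Krt18, with means of 276 and 201 CPM in the KAT6A knockout. In the double knockout their means were 305 and 238 CPM (log2 0.15 ± 0.27 and 0.25 ± 0.25), and neither passed the test. The part of this list's level in the values of Krt7, H19 and Nrk was not tested. In bulk RNA, more cells of a type and more RNA per cell cannot be told apart. Endoderm genes had 11 of 14 positive values and a median of 0.30, with 4 apart and higher, and basement membrane genes 11 of 12 and 0.20, with Col4a1 at 91.1 to 102 against 150 to 184 CPM and Col4a2 at 54.6 to 62.5 against 89.5 to 110 CPM (adjusted p = 0.186 and 0.185).

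Germline and meiosis genes had 18 of 19 tested members positive and a median log2 difference of 0.39, with 8 apart and higher and none called. Piwil2, a PIWI protein of piRNA silencing, was at 14.3 to 15.6 CPM in the KAT6A knockout and at 19.5 to 22.6 CPM in the double knockout. Magea9 was at 4.43, 5.18 and 6.25 CPM and at 11.1, 13.4 and 14.8 CPM. The list of 8 Y-linked genes was positive in all 8 and apart in 6, with a median of 0.85, which rests in part on genes at low levels: Zfy2 was at 0.0224 to 0.0769 and 0.372 to 0.527 CPM (adjusted p = 0.284). The summed level of the 8 listed genes did not overlap, at 167 to 218 CPM in the KAT6A knockout and 237 to 260 CPM in the double knockout. Over the 6 Y-linked genes whose mean reached 5 CPM the median was 0.23. The summed level of the whole Y chromosome overlapped, at 358, 321 and 361 CPM in the KAT6A knockout and 357, 388 and 370 CPM in the double knockout. Uba1y was at 14.9 to 19.9 and 28.2 to 30.8 CPM (adjusted p = 0.146), while Ddx3y overlapped at 61.7 to 84.7 and 80.5 to 97.7 CPM. Genes of the 2-cell-like state, a rare cell state in these cultures, were positive in all 11 tested of 16 and apart in 5, with a median of 0.98. All but Eif1a lay under 5 CPM in every one of the 6 libraries, the Zscan4 copies are nearly identical, and in KAT6B knockout minus E14 the median was -0.17. Imprinted genes had 1 call, H19, with 20 of 25 positive and a median of 0.19. Igf2, the neighbour of H19, was at 105 to 112 and at 132 to 226 CPM (log2 0.59 ± 0.37, adjusted p = 0.766), while in KAT6B knockout minus E14 it gave -1.22 (adjusted p = 0.29 by edgeR). It passed the test in neither.

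Among chromatin regulators, none of 27 Polycomb genes was called, with 9 apart and higher and 4 apart and lower and a median of 0.05. Bmi1 was at 3.7 to 4.16 CPM in the KAT6A knockout and at 6.64 to 11 CPM in the double knockout (log2 1.11 ± 0.25, adjusted p = 0.184), and Pcgf2, its paralogue in the same type of complex, at 101 to 118 and 81.8 to 89.4 CPM (log2 -0.36 ± 0.11, adjusted p = 0.395). Ezh2, the H3 lysine 27 methyltransferase, was at 116 to 125 and 104 to 112 CPM. MLL and trithorax genes (18) had a median of -0.02, and the other acetyltransferases and deacetylases (22) a median of 0.00; none of either list was called.

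**Figure D5:**
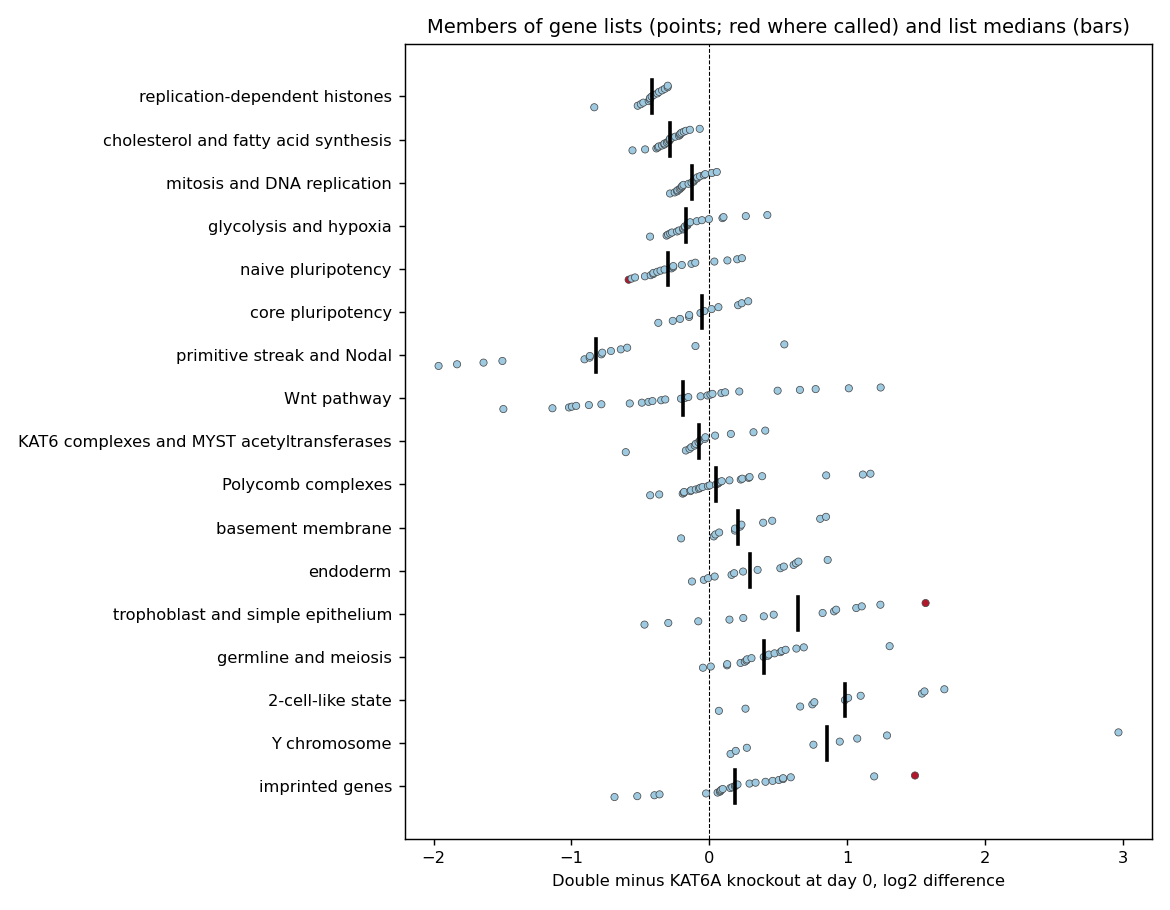
Log2 difference in double minus KAT6A knockout at day 0 for the tested members of 17 of the 40 gene lists (points, red where called, spread vertically by rank within a list) with the list median as a bar. All histone and lipid synthesis members lie left of 0, all 2-cell-like and Y-linked members lie right of 0, and 3 called points, Tdh, Krt7 and H19, are red.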

How the data were processed

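RNA was sequenced from E14 mouse embryonic stem cells of 4 genotypes at 4 days, 3 libraries each. The authors deposited whole-number counts per gene, aligned with HISAT2 to GRCm39 per the submitters' processing notes. For the counting tool, its treatment of strand, the gene annotation and the HISAT2 version, the record reads: not given in the sources used here. Per the labels' protocols, ribosomal RNA was depleted and the kit keeps strand. Of 36983 table entries, 48 with a repeated identifier were left out, keeping the entry with the largest total, which left 36935 genes.

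From the counts, edgeR 4.0.16 (R 4.3.3, limma 3.58.1) fitted the 12 libraries of a day together, after TMM scaling and a filter on low counts (minimum count 10, minimum total 15), with its robust quasi-likelihood F test and Benjamini-Hochberg adjustment over all genes tested, threshold 0.05. The SE is the log2 difference divided by the square root of F. CPM are TMM-scaled. Fits were tested on simulated data. Libraries were grouped by label. Named genes were all called genes plus a fill to 12 per direction with a mean of at least 5 CPM, and members of 40 lists (690 genes); 1 called gene is counted but not reported here. The comparison and the lists were chosen with earlier results of these data known. Alternatives were other size factors, other filters, DESeq2 1.42.0, the replicate number as a block, other sets of libraries in the fit, and each library left out.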

Additional observations from a re-analysis of the deposited data

How the results depend on the processing

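In double minus KAT6A knockout at day 0 (10 genes), the count was 36 with no filter on low counts, 127 with DESeq2, 78 with the 6 compared libraries alone and 2 with all 48 libraries in 1 fit, and ran from 0 (without KAT6A knockout replicate 1) to 27 (without E14 replicate 2) with 1 library left out. In KAT6B knockout minus E14 (2 genes) it was 48, 218, 0 and 1 in the same order and ran from 0 to 1164. For the difference of the effects (0 genes) DESeq2 gave 1 and the range was 0 to 2. At day 2 (3 genes) the count was 11 with no filter, 115 with DESeq2 and 0 with the compared libraries alone, and ran from 0 to 35. At day 6 (2 genes) it was 11 with DESeq2 and 0 with the compared libraries alone, and ran from 2 to 3. At day 15 (1 gene) it was 71 with DESeq2, 0 with the compared libraries alone and 91 with all 48, and was 0 in each fit without 1 library. With the replicate number as a block, the counts were 25 and 26 in these day 0 comparisons. For their difference the count was 0, and it was 5 at day 2, 3 at day 6 and 0 at day 15. Same-numbered KAT6A and double knockout libraries had correlations of -0.0443, -0.114 and 0.112, and differently numbered ones -0.121 to 0.149. Same-numbered E14 and KAT6B knockout libraries had 0.0191, 0.192 and 0.256, and differently numbered ones -0.322 to 0.158. Same-numbered pairs had both signs in the main comparison and were all positive for E14 and the KAT6B knockout. The main fit did not pair the libraries, and the block raised the day 0 counts from 10 to 25 and from 2 to 26. Double and KAT6B knockout libraries were not correlated in this way, and whether a number marks a shared experiment was not tested. With 1 library left out, the log2 difference took either sign for Ing5 (-0.19 to 0.049, positive without double knockout replicate 2), Jade1 (-0.023 to 0.13, negative without KAT6A knockout replicate 1, at -0.0083, or double knockout replicate 3), Meaf6 (-0.13 to 0.018, positive without KAT6A knockout replicate 3) and Jade2 (-0.15 to 0.12, positive without double knockout replicate 2), none of them called. The causes were not tested. With 3 libraries a group and a biological coefficient of variation of 19.3% at day 0 and 37.8% at day 15, changes that miss the threshold are not shown to be absent.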
